A study of Mus musculus with 9 samples.

Results

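Pigr and Fcgrt encode the receptors that carry immunoglobulins across epithelial cells. They were taken as the 2 rows, of 29288 in the count table, whose mouse Ensembl identifiers map to these symbols. Pigr is ENSMUSG00000026417 and Fcgrt is ENSMUSG00000003420. The libraries were bulk RNA sequencing of intestinal epithelial cells (IECs) that had been sorted from crypts of the proximal small intestine as live EpCAM+ cells lacking Ter119, CD31 and CD45. All mice were female wild-type C57BL/6J, and the labels gave no age. The control group received phosphate-buffered saline (PBS) intraperitoneally and was sampled at 18 h (n = 3). The other groups received 2 µg of α-galactosylceramide (αGalCer), the glycolipid that CD1d presents to natural killer T (NKT) cells, and were sampled at 18 h (18h-αGal, n = 3) or at 72 h (72h-αGal, n = 3). The comparisons ask how NKT cell activation bears on epithelial gene expression. The only controls were the 18 h ones, so at 72 h the treatment and the time of sampling cannot be told apart. The study's methods give 3 mice per group, and the labels number the replicates without naming animals. The p-values describe the spread between these libraries.

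The polymeric immunoglobulin receptor, encoded by Pigr, sits on the basolateral side of crypt and villus epithelial cells, binds dimeric IgA and pentameric IgM through the joining chain, and carries them by transcytosis to the lumen, where its cleaved ectodomain stays on the antibody as secretory component. One receptor is used up for each antibody delivered. Its gene is known as a target of interferons, tumour necrosis factor, interleukin-17 and interleukin-4, acting through factors that include IRF1 and NF-κB. The neonatal Fc receptor, whose heavy chain is encoded by Fcgrt, is a class I-like molecule that pairs with β2-microglobulin, binds IgG and albumin at acidic pH in endosomes, and recycles them or moves them across the cell in either direction. It is best known in rodent intestine for the uptake of maternal IgG from milk before weaning.

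In the GENCODE vM39 annotation of GRCm39, Pigr lay on chromosome 1 from 130754397 to 130779986 on the plus strand, and its exons covered 4049 bases in 13 blocks. Fcgrt lay on chromosome 7 from 44742412 to 44756819 on the minus strand, with 4917 exonic bases in 8 blocks. An antisense non-coding gene overlapped each body, Gm15848 at Pigr and Gm45669 at Fcgrt, but each shared 0 exonic bases with the receptor. Of the 50-base words in the annotated transcripts, 0.506% in Pigr and 0.156% in Fcgrt also occurred in transcripts of other genes, so few reads of either gene could have been shared with a copy elsewhere.

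The stretch before the Pigr start is shown because it holds letters that regulators on the lists used here are known to bind. It is given from RefSeq on GRCm38.p6, chr1:130826434-130826659 on the plus strand, and ends where GENCODE begins the first exon. Capitals mark the E-box CACGTG, the letters that the factors USF1 and USF2 bind, which began 71 bases before the RefSeq start.
Pigr upstream: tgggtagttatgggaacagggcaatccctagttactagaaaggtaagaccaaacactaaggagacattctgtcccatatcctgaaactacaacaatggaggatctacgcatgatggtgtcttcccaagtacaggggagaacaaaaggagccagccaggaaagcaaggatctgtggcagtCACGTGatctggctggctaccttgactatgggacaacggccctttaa
Windows of 300 bases around 32851 RefSeq starts were searched on both strands. The E-box occurred in 7.15% of them, and the Fcgrt window held none. A match of letters is not a bound site, and these libraries measured no binding.

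Pigr was among the most abundant transcripts of the sorted IECs. It ranked between 11 and 18 among all genes by count in the 9 libraries, and per kilobase of exon between 10 and 22 among protein-coding genes. It held 0.579% ± 0.0793 of all counts in the control group (SD, n = 3), 0.338% ± 0.0598 in 18h-αGal and 0.553% ± 0.0507 in 72h-αGal. Fcgrt was a gene of middle rank, between 2319 and 5227 per kilobase among protein-coding genes. Per kilobase of exon, Pigr exceeded Fcgrt by a factor of 86.9 to 208 in single libraries. Single libraries held 603 to 1345 raw counts of Fcgrt and 59493 to 170329 of Pigr, out of totals from 8887861 in control replicate 3 to 32722293. Mitochondrial genes took 7.95% to 11.7% of the counts. Within libraries counting error was small against the spread between libraries.

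Pigr mRNA was lower at 18 h after αGalCer than in PBS controls, and at 72 h it lay near the control level. Normalised counts, meaning raw counts divided by 1 size factor per library, were 100039, 100355 and 141438 in the control libraries. They were 65361, 54084 and 82261 in 18h-αGal and 114717, 104450 and 90845 in 72h-αGal. Every 18h-αGal library lay below every control and every 72h-αGal library, whereas the ranges of control and 72h-αGal overlapped. The group means were 113944 ± 23811 in the control group, 67235 ± 14182 in 18h-αGal and 103337 ± 11975 in 72h-αGal (SD, n = 3 each). In the order control, 72h-αGal, 18h-αGal, the first pair did not differ beyond its spread.

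**Figure D1:**
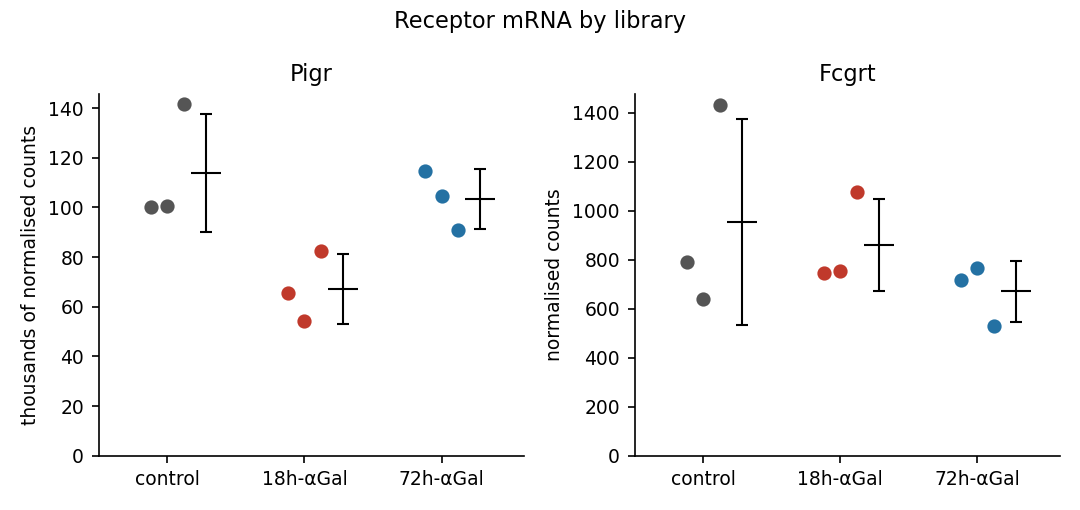
Normalised counts of Pigr (left, in units of 1000) and Fcgrt (right) in each library of the control, 18h-αGal and 72h-αGal groups. Points are libraries, and bars give the mean ± SD of 3; the 18h-αGal points for Pigr, from 54084 to 82261, sit below all others, whereas the Fcgrt ranges overlap.

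In a quasi-likelihood fit (edgeR), with p-values adjusted by Benjamini-Hochberg over 18933 genes, Pigr fell at 18 h by 0.75 ± 0.16 (SE) on the log2 scale, which is 0.593 of the control level (edgeR, adjusted p = 0.0145). The 95% confidence interval of the log2 fold change ran from -1.10 to -0.40. In this comparison 5.96% of the tested genes passed an adjusted p of 0.05, 2.69% lower and 3.27% higher. Groups did not overlap for 23.8% of genes, and for 12.3% all 18h-αGal libraries were the lower ones, as for Pigr. From 18 h to 72 h Pigr rose by 0.63 ± 0.16 on the log2 scale, or 1.55-fold (edgeR, adjusted p = 0.0247), where 10.2% of genes passed, 4.18% higher at 72 h and 6.04% lower. Groups did not overlap there for 32.8% of genes, with 72h-αGal the lower group for 16.3% and the higher group, as for Pigr, for the rest. Between 72h-αGal and control the log2 difference was -0.12 ± 0.16, with an interval from -0.47 to 0.22 (edgeR, adjusted p = 0.960), where 0.0264% of genes passed and 5.94% had an unadjusted p under 0.05, and 6.3% had all 72h-αGal libraries below the controls, which Pigr and Fcgrt did not. The lower bound of that interval is a level of 0.721 of control.

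Both calls for Pigr depended on single libraries. Without 18h-αGal replicate 2, the lowest of its group, the log2 fold change at 18 h was -0.62 (edgeR, adjusted p = 0.0851, with 2.16% of genes called) and that from 18 h to 72 h was 0.50 (edgeR, adjusted p = 0.116, with 4.69% called). Without control replicate 3, which was the shallowest library and the highest for both receptors, the 18 h value was -0.58 and stayed called (edgeR, adjusted p = 0.0235, with 7.66% called). The call from 18 h to 72 h was also lost without 18h-αGal replicate 1 (edgeR, adjusted p = 0.0690), 72h-αGal replicate 1 (adjusted p = 0.0978) or 72h-αGal replicate 2 (adjusted p = 0.0653), so it rested on several libraries.

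Fcgrt did not pass the test in any comparison. Its normalised counts were 790, 642 and 1434 in the control group. They were 747, 755 and 1076 in 18h-αGal, and 716, 768 and 530 in 72h-αGal. The 3 groups overlapped, and control replicate 3 held the highest value of all 9. Group means were 955 ± 421, 859 ± 188 and 671 ± 125 in that order (SD, n = 3 each). The log2 difference from control was -0.13 ± 0.27 at 18 h, with a 95% interval from -0.71 to 0.44 (edgeR, adjusted p = 0.836), and -0.48 ± 0.27 at 72 h, with an interval from -1.06 to 0.10 (edgeR, adjusted p = 0.873). From 18 h to 72 h it was -0.35 ± 0.27, with an interval from -0.92 to 0.23 (edgeR, adjusted p = 0.475), and it was not among the 24.3% of genes with an unadjusted p under 0.05 there. The 18 h interval of Fcgrt thus overlaps that of Pigr. Without control replicate 3 the Fcgrt difference changed sign at 18 h, to 0.26, and moved from -0.48 to -0.08 at 72 h.

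**Figure D2:**
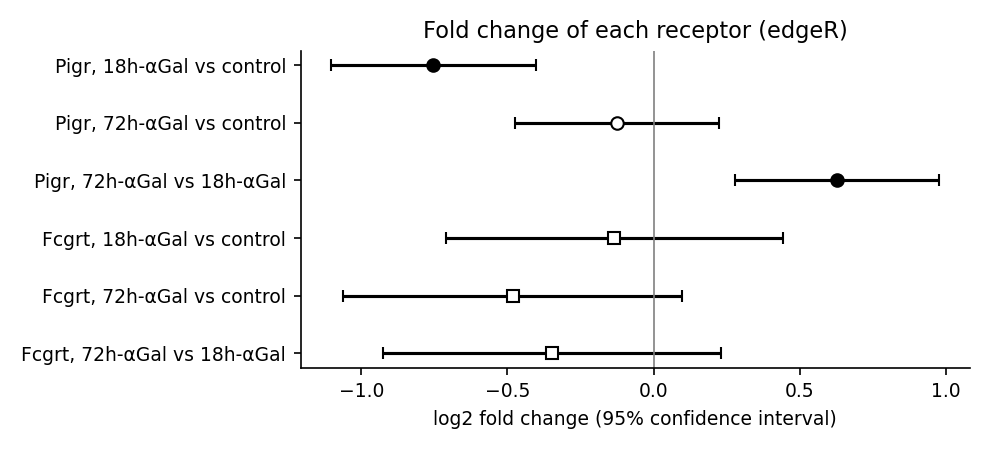
Log2 fold change of Pigr (circles) and Fcgrt (squares) in the 3 comparisons, with 95% confidence intervals from edgeR; filled symbols passed an adjusted p of 0.05. The 2 filled symbols are Pigr at -0.75 in 18h-αGal against control and at 0.63 in 72h-αGal against 18h-αGal.

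The ratio of both receptors within a library does not depend on how libraries are scaled. There were 127, 156 and 98.7 counts of Pigr per count of Fcgrt in the control libraries, 87.6, 71.6 and 76.4 in 18h-αGal, and 160, 136 and 171 in 72h-αGal. All 18h-αGal libraries lay below all others. The mean log2 ratio was 6.97 ± 0.33 in control, 6.29 ± 0.15 in 18h-αGal and 7.28 ± 0.17 in 72h-αGal (SD, n = 3 each). The difference was -0.68 at 18 h and 0.99 between 72 h and 18 h, each with p = 0.1 by a two-sided exact permutation test, the smallest value that 3 against 3 libraries can give. Between 72h-αGal and control it was 0.31 (exact permutation p = 0.2). Adjusted by Benjamini-Hochberg over the 3 ratio comparisons, these p-values were 0.15, 0.15 and 0.2.

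Because the sort took all EpCAM+ cells, a lower level can come from fewer cells of a type or from less RNA per cell, and bulk libraries cannot tell these apart. The makeup of the libraries was therefore read from marker lists. The summed normalised count of 8 general epithelial markers (Epcam, Cdh1, Krt8, Krt18, Krt19, Krt20, Vil1 and Cldn7) ran from 99421 to 128496 in control, from 113936 to 131141 in 18h-αGal and from 85625 to 110338 in 72h-αGal. Set against this sum, Pigr came to 95.8%, 101% and 110% in the control libraries, 57.4%, 46.1% and 62.7% in 18h-αGal, and 104%, 101% and 106% in 72h-αGal. The spread within groups was small on this scale, and the 18h-αGal libraries stood below both other groups. The marker sum itself was higher in every 18h-αGal library than in every 72h-αGal library. From 18 h to 72 h 5 of the 8 markers had an unadjusted p under 0.05 in edgeR, as had 24.3% of all genes. After adjustment 1 of the 8 was called, higher at 72 h, where 10.2% of all genes were called. A change of Pigr on this scale thus includes that of the marker sum. Scaled to these markers across all genes, a setting chosen after the values were seen, the log2 fold change of Pigr was -0.88 ± 0.12 at 18 h (edgeR, adjusted p = 0.000878, with 3.82% of genes called) and 0.90 ± 0.12 between 72 h and 18 h (adjusted p = 0.000521, with 8.8% called).

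Markers of enterocytes, the absorptive cells that carry much of the Pigr of the villus, spread widely. The sum of 10 of them (such as Sis, a disaccharidase, and Anpep, a brush border peptidase) ran from 122984 to 335295 in control, with the highest value in replicate 3, from 171581 to 279989 in 18h-αGal and from 79147 to 162520 in 72h-αGal. Pigr as a share of this sum was 52.9%, 81.6% and 42.2% in control, 31.8%, 31.5% and 29.4% in 18h-αGal and 89.8%, 64.3% and 115% in 72h-αGal. The 18h-αGal libraries were again below all others. Fcgrt as a share of the enterocyte sum was 0.418% to 0.522% in control, 0.363% to 0.440% in 18h-αGal and 0.472% to 0.669% in 72h-αGal, so that each αGalCer group overlapped control while the αGalCer groups did not overlap each other. Within the control group both receptors were highest in the library with the highest enterocyte sum, and within 18h-αGal likewise. Within 72h-αGal this held for Fcgrt, in replicate 2, but Pigr was highest in replicate 1.

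**Figure D3:**
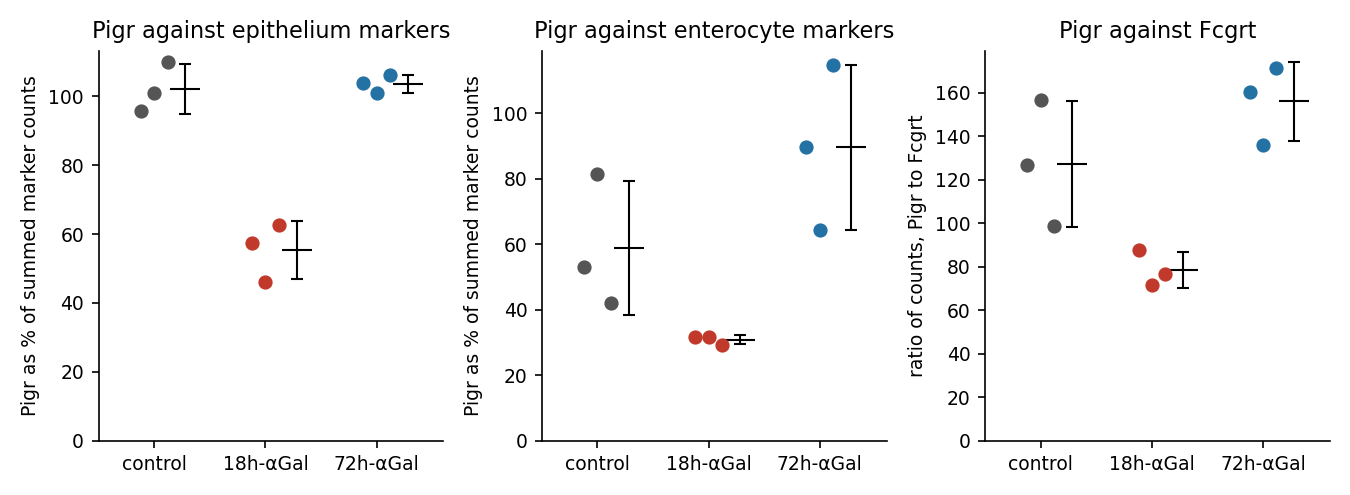
Pigr in each library as a percentage of the summed normalised counts of 8 epithelial markers (left) and of 10 enterocyte markers (centre), and as a ratio of counts to Fcgrt (right); points are libraries, and bars give the mean ± SD of 3. In all 3 panels the 18h-αGal libraries lie below every other library, at 46.1% to 62.7%, 29.4% to 31.8% and 71.6 to 87.6.

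Crypt stem cell markers were also low at 18 h. Their sum, of which Olfm4 made up 58.1%, was 68461, 82375 and 42510 in control, 39656, 29908 and 11720 in 18h-αGal, and 65849, 54737 and 86239 in 72h-αGal. The 18h-αGal values lay below all others, although 0 of the 6 markers passed the test at 18 h by edgeR, with 2 at an unadjusted p of 0.05. After adjustment 2 were called lower by DESeq2 and 1 by edgeR without control replicate 3. From 18 h to 72 h 1 of the 6 was called higher by edgeR and 4 by DESeq2. Within 18h-αGal, Pigr was highest in the library with the fewest stem cell markers, replicate 3. Pigr as a share of this sum was 122% to 333% in control, 165% to 702% in 18h-αGal and 105% to 191% in 72h-αGal, with overlap of all groups, so on this scale it was not lower at 18 h. Goblet cell markers, 58.7% of them Fcgbp, varied from 119037 to 372083 across all libraries without separating the groups. At 18 h 1 of these 6 was called higher, 16.7% against 5.96% of all genes, and 4 had negative log2 differences. With library size set to the epithelial markers 0 of them were called, where 3.82% of all genes were called. Enteroendocrine markers summed to 6926 to 9802 in control, 9860 to 16938 in 18h-αGal and 3147 to 5135 in 72h-αGal, so that the groups did not overlap. Of these 6 markers 2 rose at 18 h, 33.3% against 5.96% of all genes. At 72 h 3 were lower than in control, of 5 genes called in that comparison. With library size set to the epithelial markers 0 of the 6 were called in either comparison, where 3.82% and 0% of all genes were called. From 18 h to 72 h 4 of the 6 fell, where 10.2% of all genes were called, and 5 fell with that library size, where 8.8% were called. The part of cell makeup in the change of Pigr was not tested.

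Transcripts of the plasma cells that make the cargo of Pigr were near 0. Jchain, which encodes the joining chain, had 6 raw counts over the 3 control libraries, 0 in 18h-αGal and 10 in 72h-αGal. Igha, the IgA heavy chain, had 37, 41 and 52, and Igkc, the κ light chain, had 19, 8 and 14. The plasma cell list summed to 1489 to 1855, of which 97.7% was Sdc1, a proteoglycan that epithelial cells also express. T cell markers summed to 30.4 to 57.5 normalised counts in control and 18h-αGal and to 5.89 to 155 in 72h-αGal. Macrophage and dendritic cell markers, 63.7% of them Cd68, summed to 580 to 663 in control, 560 to 864 in 18h-αGal and 807 to 1082 in 72h-αGal. Endothelial markers summed to 88.0 to 95.7 in control, 19.8 to 40.0 in 18h-αGal and 70.6 to 98.6 in 72h-αGal. Macrophages and endothelium are known to express Fcgrt, whose normalised counts in these libraries were 530 to 1434, and their part in its level was not tested. Pigr, at 54084 or more, exceeded the sum of each of these 4 lists in every library.

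Other receptors for immunoglobulins were measured from a list of 17, of which 12 were in the table and 7 were tested. In each comparison 0 of the 7 passed the adjusted test, with 2, 0 and 1 at an unadjusted p of 0.05. At 18 h Fcmr passed under DESeq2, without a filter on low counts and without control replicate 3, which are 3 of its 17 alternatives. Fcamr, the Fc receptor for IgA and IgM that neighbours Pigr on chromosome 1, was at 77.5 ± 19.7, 104 ± 28.4 and 117 ± 10.1 normalised counts in control, 18h-αGal and 72h-αGal. Fcmr, the IgM receptor in the same cluster, had 65 raw counts in control, all in replicates 1 and 2, 0 in 18h-αGal and 28 in 72h-αGal. Against a floor of 3 counts over the 18h-αGal group, the counts pooled by group were at least 23.4-fold lower. That bound leaves out the spread between libraries, and control replicate 3 had no counts either. The adjusted p for Fcmr at 18 h was 0.0719 in edgeR and 0.0135 in DESeq2. Trim21, the cytosolic receptor for antibody-coated particles, was at 178 ± 28.4 in control and 284 ± 54.1 in 18h-αGal (edgeR, adjusted p = 0.113). These groups did not overlap, as for 23.8% of all genes in that comparison. Fcgbp, a goblet cell protein that binds IgG Fc, had counts as high as Pigr, with means of 140000, 105121 and 161744, but single libraries ran from 62391 to 219519 and it was not called (edgeR, adjusted p = 0.708 at 18 h). Tfrc, the transferrin receptor, which is also known to bind polymeric IgA, lay between 8661 and 12076 in all libraries.

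The partner of the Fcgrt product passed the test where Fcgrt did not, though the difference between both genes was not tested. B2m, encoding β2-microglobulin, was at 13671, 11386 and 24297 in control, 35771, 38525 and 38223 in 18h-αGal and 16434, 15759 and 12402 in 72h-αGal. All 18h-αGal libraries were above all others. Groups did not overlap, in either direction, for 23.8% of all genes against control and for 32.8% against 72h-αGal. B2m rose at 18 h by 1.20 ± 0.24 on the log2 scale (edgeR, adjusted p = 0.0159) and fell by 1.33 ± 0.24 from 18 h to 72 h (edgeR, adjusted p = 0.00684). Of the 8 genes of this class I fold list, B2m included, 4 were tested. Hfe, which regulates iron uptake and also pairs with β2-microglobulin, fell by 1.74 ± 0.46 at 18 h, from 134, 116 and 90.3 normalised counts to 45.4, 12.6 and 44.2 (edgeR, adjusted p = 0.0363). H2-M3, which presents formylated peptides, had a log2 difference of 2.06 (edgeR, adjusted p = 0.0997), and Cd1d1, the molecule that presents αGalCer, one of -0.67 (edgeR, adjusted p = 0.616). Without 18h-αGal replicate 2 the log2 fold change was 1.18 for B2m (edgeR, adjusted p = 0.0713) and -1.34 for Hfe (edgeR, adjusted p = 0.113). In all, B2m lost its 18 h call in 4 of 18 alternatives and Hfe in 6.

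Among 29 known or proposed regulators of Pigr, 28 were tested, and at 18 h 3 rose and 3 fell, 21.4% against 5.96% of all genes. Irf1, an interferon-induced factor known to act on the Pigr gene, was at 1634, 2214 and 2434 in control and at 3443, 3651 and 3473 in 18h-αGal, and rose by 0.76 ± 0.16 (edgeR, adjusted p = 0.0135). Every 18h-αGal library lay above every control, and groups did not overlap, in either direction, for 23.8% of all genes. Il13ra1, a receptor chain for interleukin-4 and interleukin-13, rose by 1.05 ± 0.19 (edgeR, adjusted p = 0.00800). The Irf1 call was lost in 2 of 18 alternatives, and Il13ra1 kept its call in all of them.

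The 3 regulators that fell at 18 h were Relb, Nfkb2 and Nr3c1. Relb, the transcription factor of the non-canonical NF-κB pathway, was at 709, 938 and 1110 in control, 437, 500 and 437 in 18h-αGal and 822, 883 and 717 in 72h-αGal. It fell by 0.99 ± 0.17 at 18 h (edgeR, adjusted p = 0.00442). Nfkb2, whose product p52 pairs with RelB, fell by 0.77 ± 0.15 (edgeR, adjusted p = 0.00909), and both rose from 18 h to 72 h, by 0.82 ± 0.17 and 0.74 ± 0.15. Nr3c1, the glucocorticoid receptor, fell by 0.48 ± 0.11 (edgeR, adjusted p = 0.0222). Of 18 alternatives, Relb kept its 18 h call in all, whereas Nfkb2 lost it in 1 and Nr3c1 in 6. Nfkb1 and Rela of the canonical pathway had log2 differences of -0.02 and -0.14 and did not pass. The median log2 fold change of the 28 genes was 0.08, against -0.03 for all genes tested, and it was -0.06 with library size set to the epithelial markers. Of the receptors upstream, Ifngr1 was at 4088 ± 421 in control and 3649 ± 165 at 18 h, and Ifngr2 at 3115 ± 934 and 2123 ± 343, and neither passed. From 18 h to 72 h 2 of the 28 rose and 8 fell, 35.7% against 10.2% of all genes, but 5 rose and 3 fell with library size set to the epithelial markers. Without control replicate 3, 8 of 29 tested rose and 3 fell at 18 h, and without 18h-αGal replicate 2, 2 rose and 1 fell.

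The interferon response served as a yardstick. Of 22 genes known to respond to interferon, B2m and Irf1 among them, 19 rose at 18 h and 0 fell, 86.4% against 5.96% of all genes. Their median log2 fold change was 2.00, against -0.03 for all genes. From 18 h to 72 h 19 fell and 0 rose, 86.4% against 10.2% of all genes, with medians of -2.04 and 0.05. Gbp2, a guanylate-binding protein, rose from 45.4 ± 21.6 to 1014 ± 285 normalised counts, and Ciita, the master regulator of class II genes, from 523 ± 298 to 2931 ± 62.4, and both kept their calls in all 18 alternatives. Pigr, itself described as an interferon target in human epithelial lines, fell in the same libraries. Of the 22 genes 12 were called at 18 h without 18h-αGal replicate 2, where 2.16% of all genes were called. Without control replicate 3 there were 21, where 7.66% of all genes were called.

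**Figure D4:**
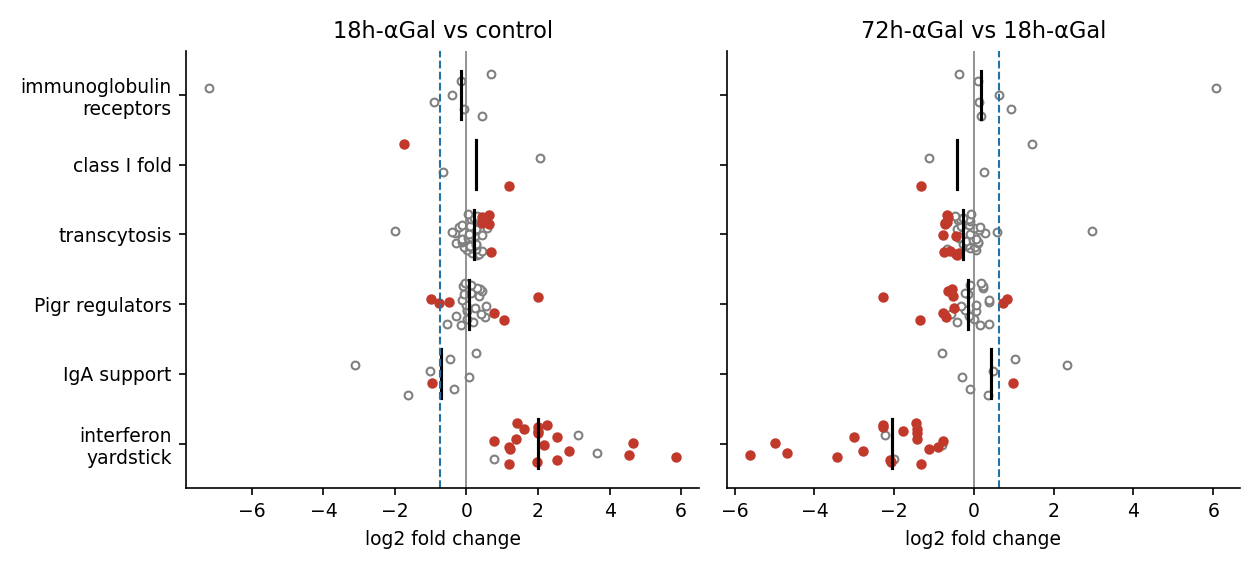
Log2 fold change of every tested gene in 6 lists, for 18h-αGal against control (left) and 72h-αGal against 18h-αGal (right); red points passed an adjusted p of 0.05, black bars are list medians, and the dashed blue line is Pigr, at -0.75 and 0.63. The interferon yardstick lies at a median of 2.00 on the left and -2.04 on the right, and the farthest grey points of the top row are Fcmr, whose fitted fold depends on the prior count because its 18h-αGal counts were 0.

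The machinery that carries both receptors through endosomes gave calls in the higher direction at 18 h. Of 44 transcytosis genes, 43 were tested, and at 18 h 5 rose and 0 fell, with a median log2 fold change of 0.20 against -0.03 for all genes, and 11.6% were called against 5.96%. Ap1s1, a subunit of the AP-1 adaptor that sorts basolateral cargo, rose by 0.69 ± 0.14 (edgeR, adjusted p = 0.00890). Its values were 1088, 1034 and 1372 in control and 1835, 1900 and 1841 in 18h-αGal. Vps35 of the retromer rose by 0.62 ± 0.13 (edgeR, adjusted p = 0.0120), Rab5c of early endosomes by 0.62 ± 0.15 (edgeR, adjusted p = 0.0227), Vamp3 of recycling vesicles by 0.44 ± 0.11 (edgeR, adjusted p = 0.0246) and Rab7 of late endosomes by 0.42 ± 0.12 (edgeR, adjusted p = 0.0449). Of 18 alternatives, these calls were lost in 1 for Ap1s1, 2 for Vps35, 6 for Rab5c, 7 for Vamp3 and 15 for Rab7. From 18 h to 72 h 12 of the 43 fell, 27.9% against 10.2% of all genes. They included Rab11a, which marks apical recycling endosomes, at -0.78, and Rab8a at -0.69. Rab17 and Rab25, small GTPases tied to epithelial transcytosis, had log2 differences of 0.26 at 18 h and did not pass. Of the 3 most abundant genes, Cltc, the clathrin heavy chain, had a difference of 0.42 (edgeR, adjusted p = 0.0505), Myo5b, the motor of apical recycling endosomes, of 0.12, and Mal2, required for apical delivery, of 0.05. These counts depend on the scale. With library size set to the epithelial markers, 1 rose and 1 fell at 18 h, with a median of 0.07, and 1 rose and 2 fell from 18 h to 72 h, where the median changed sign to 0.02. Without 18h-αGal replicate 2, 1 of the 43 rose at 18 h, and 8 rose without control replicate 3.

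Among 12 genes by which epithelium is known to attract or support IgA plasma cells, 8 were tested and 1 passed at 18 h, 12.5% against 5.96% of all genes. With DESeq2, with library totals and with library size set to the epithelial markers 2 were called lower. Ccl28, the chemokine that draws IgA-secreting cells to mucosae, was at 1807, 2244 and 1897 in control, 1263, 953 and 821 in 18h-αGal and 1953, 1680 and 2391 in 72h-αGal. The 18h-αGal values lay below all others, as for Pigr. Groups did not overlap, in either direction, for 23.8% of all genes against control and for 32.8% against 72h-αGal. Ccl28 fell by 0.96 ± 0.17 at 18 h (edgeR, adjusted p = 0.00527), kept that call in all 18 alternatives run, and rose by 0.99 ± 0.17 from 18 h to 72 h (edgeR, adjusted p = 0.00293). Ccl25, the small intestinal chemokine for gut-homing lymphocytes, was at 6154 ± 1694 in control and 4808 ± 1251 at 18 h (edgeR, adjusted p = 0.371). Aldh1a1, which makes retinoic acid, was at 1775 ± 723 and 564 ± 182 (edgeR, adjusted p = 0.0542), and Ltbr at 2648 ± 409 and 2789 ± 436 (edgeR, adjusted p = 0.808). Tnfsf13 and Tnfsf13b, encoding the plasma cell survival factors APRIL and BAFF, did not pass.

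**Figure D5:**
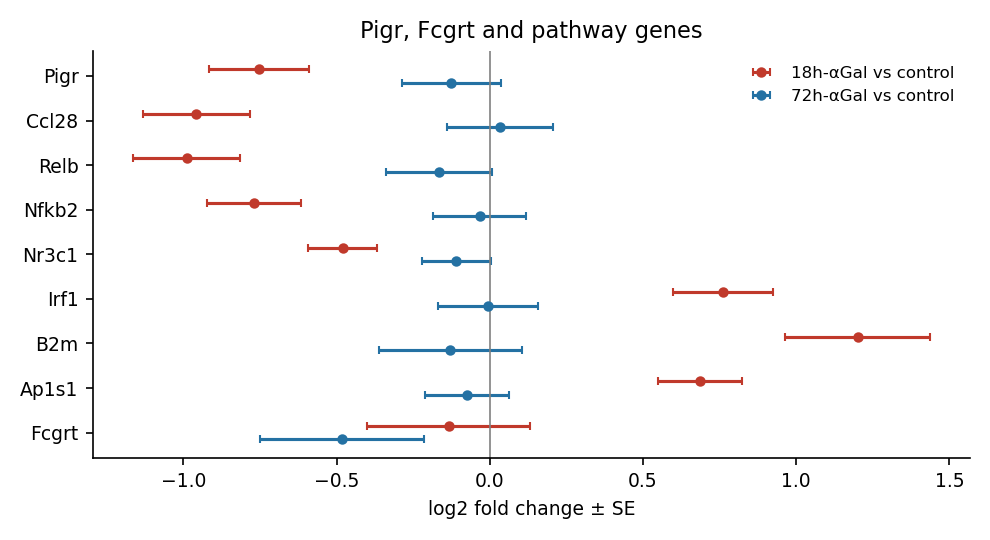
Log2 fold change ± SE against control for Pigr, Fcgrt and 7 genes of the lists, at 18 h (red) and 72 h (blue), from edgeR. Pigr, Ccl28, Relb, Nfkb2 and Nr3c1 lie between -0.99 and -0.48 at 18 h and between -0.17 and 0.03 at 72 h, whereas Irf1, B2m and Ap1s1 lie above 0 at 18 h.

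Calls among the genes beside Pigr were few and depended on the setting. Within 250 kb of Pigr 11 other genes were tested, and at 18 h 0 of them passed in edgeR, with 3 at an unadjusted p of 0.05. At 18 h 1 was called lower by DESeq2, 1 with library size set to the epithelial markers, and 1 without control replicate 3, where 1 was also called higher. Mapkapk2, a kinase of stress signalling, had a log2 difference of 0.45 at 18 h (edgeR, adjusted p = 0.0594). From 18 h to 72 h Mapkapk2 was the 1 gene called of these 11, 9.09% against 10.2% of all genes. It fell by 0.48 (edgeR, adjusted p = 0.0333), a call lost in 8 of 18 alternatives. With library size set to the epithelial markers 2 neighbours rose and 0 fell over that time, where 8.8% of all genes were called. Pfkfb2 had 623, 641 and 626 normalised counts in the group means. Within 250 kb of Fcgrt 36 genes were tested, and at 18 h 1 rose and 1 fell, 5.56% against 5.96% of all genes. Ap2a1, a subunit of the AP-2 clathrin adaptor, rose by 0.45 ± 0.11 (edgeR, adjusted p = 0.0304), and Prr12 fell by 0.68 ± 0.17 (edgeR, adjusted p = 0.0244). These calls were lost in 11 and 6 of 18 alternatives. From 18 h to 72 h 3 of the 36 rose and 2 fell, 13.9% against 10.2% of all genes. With library size set to the epithelial markers 4 rose and 0 fell, where 8.8% of all genes were called.

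The genes whose pattern was most like each receptor were read from log2 CPM (counts per library total, scaled) over the 9 libraries, among 10904 tested genes with a mean normalised count of at least 100. These are descriptions over libraries that differ in treatment, time of sampling and depth. For Pigr they were Nr3c1 (Pearson r = 0.971), Abat (0.968), Pde3a (0.967), Hic2 (0.965) and Erbb3 (0.961). Erbb3, a receptor of the epidermal growth factor receptor family, went from 11791 in control to 7256 at 18 h and 10941 at 72 h. For Fcgrt they were Cobl (0.983), Ttyh2 (0.983), Tgoln1 (0.981), Mical1 (0.978) and Myo15b (0.977). Cobl, an actin nucleator, is known in brush border assembly, and Tgoln1 is a protein of the trans-Golgi network. Pigr and Fcgrt had r = 0.311 with each other. After the group means were subtracted they had r = 0.862. By this r Fcgrt ranked 375 among the genes most like Pigr, and Pigr ranked 984 among those most like Fcgrt. Replicate 3 was the highest library for both receptors in control and 18h-αGal, and the lowest for both in 72h-αGal. Replicates 1 and 2 stood in opposite order for the receptors in every group. With the group means subtracted, Pigr was most like Smurf2 (0.987), Slc22a5 (0.984), Baiap2l1 (0.983), Zfp592 (0.981) and Klc1 (0.978). Fcgrt was most like Ppip5k1 (0.995), Fat1 (0.993), Dync1li1 (0.992), Myo5b (0.991) and Arcn1 (0.991). Myo5b was also on the transcytosis list, and control replicate 3 was the library farthest above its group mean for both receptors.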

How the data were processed

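Total RNA of sorted small intestinal crypt IECs was sequenced in 9 libraries (3 groups of 3) after ribosomal depletion with a directional kit. The authors deposited raw read counts per gene, from reads mapped with HISAT2; per the labels' processing notes, featureCounts (Subread) and DESeq2 1.42.0 were used. The notes list GRCm38 and mm10 whereas the study's methods name GRCm39, and the annotation, strand setting and handling of reads with several matches are not given in the sources used here. The second deposited table holds a normalised signal, each count divided by 1 size factor per library, and was used for levels. The number of per-sample columns not used was 0.

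Genes were named by matching identifiers to GENCODE vM39 (28480 of 29288 matched, with 98.4% of counts). Raw counts were filtered with filterByExpr (18933 genes kept) and fitted once over all 9 libraries in edgeR 4.0.16 (R 4.3.3) with TMM scaling and the robust quasi-likelihood test, with Benjamini-Hochberg adjustment over all tested genes at a threshold of 0.05. limma 3.58.1 and DESeq2 1.42.0 served as alternatives, and the script was tested on simulated data. The ratio of both receptors was tested by two-sided exact permutation. Total counts from 8887861 to 32722293 set the precision, and intervals describe the spread between libraries.

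Named were both receptors, a set of always-named partners and the 5 genes most like each receptor. In each list up to 5 called genes with the largest change and the 3 most abundant were eligible. Tested genes within 250 kb were eligible too, and not every eligible gene is named. Other list genes were chosen after their values were seen. The receptors and lists were chosen with earlier results of these data known. Fcgr3, Fcgr4, Fcer1a, Ms4a2, Fcrlb and Aldh1a2 were on the lists and are not analysed here. Some items counted in the list totals are not reported here.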

Additional observations from a re-analysis of the deposited data

Results flagged for a closer look

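Pigr differed between the αGalCer groups at 18 h and 72 h. Without a 72 h control, a changed effect of αGalCer cannot be told apart from the time of sampling. The log2 fold change against control was -0.75 at 18 h and -0.12 at 72 h, and the difference between both, tested as 72h-αGal against 18h-αGal, was 0.63 ± 0.16 (SE; edgeR, adjusted p = 0.0247). Every one of the 3 libraries at 72 h lay above every one of the 3 at 18 h, and groups did not overlap, in either direction, for 32.8% of genes. The call was lost in 5 of 18 alternatives.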

How the results depend on the processing

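Genes called at 18 h numbered 1128, against 1720 by DESeq2, 593 with only the 2 groups compared, 724 with library size set to the summed epithelial markers (chosen after seeing the data), and 432 (without 18h-αGal replicate 2) to 1556 (without control replicate 3) with 1 library left out. At 72 h against control they numbered 5, against 31 by DESeq2, 13 without a filter on low counts, 3 without the robust option, 0 with epithelial scaling and 0 to 20 with 1 library left out. For 72 h against 18 h they numbered 1936, and 831 to 2593 with 1 library left out, the lowest without 72h-αGal replicate 3 and the highest without control replicate 3. Of the calls 54.9% were higher at 18 h, against 30.2% with epithelial scaling, and for 72 h against 18 h 40.9% were higher, against 77.9%. Epithelial scaling moved the median log2 fold change of all genes to -0.18, 0.13 and 0.33 in the 3 comparisons, where the main fit had -0.03, 0.00 and 0.05, so that relative to this shift Pigr was still lower at 18 h.

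For Pigr the 18 h value kept its direction under all 18 alternatives. Its call was lost without a filter (-0.74, edgeR, adjusted p = 0.0623), with only the 2 groups compared (-0.76, edgeR, adjusted p = 0.0514) and without 18h-αGal replicate 2, and values with 1 library left out ran from -0.92 to -0.58. The 72 h value against control, which was not called, changed sign with epithelial scaling (0.020) and ran from -0.20 to 0.057 (without control replicate 3) with 1 library left out. The value for 72 h against 18 h lost its call without a filter (0.63, edgeR, adjusted p = 0.0911) and without 18h-αGal replicate 1 or 2 or 72h-αGal replicate 1 or 2 (range 0.50 to 0.80). Fcgrt at 18 h ran from -0.35 to 0.26. The ratio of both receptors kept its sign in every comparison with 1 library left out, from -0.85 to -0.51 at 18 h, 0.14 to 0.47 at 72 h and 0.92 to 1.08 between them. Among uncalled values at 72 h, B2m changed sign with epithelial scaling (0.039; -0.33 to 0.26 with 1 library left out), and Irf1 with library totals (0.040), without a filter (0.00798) and with epithelial scaling (0.12; -0.15 to 0.16 with 1 library left out). The cause of these changes was not tested.

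Same-numbered replicates did not deviate together (r from -0.150 to 0.115 over 9 pairs, 1 of them over 0.1), and 5 of 18 library matches were best with the own number, so the numbers were not taken as pairing the libraries. With the replicate number as a block, 781, 1 and 1371 genes were called in the 3 comparisons, and Pigr had -0.76 (edgeR, adjusted p = 0.0263), -0.10 and 0.66 (adjusted p = 0.0335).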
